A study of Drosophila melanogaster with 12 samples.

Results

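State 4 is the active intron state of a map that labels regions of the Drosophila genome with 9 chromatin states. Its members are the 6355 regions that the deposited list gives the state number 4 on the arms 2L, 2R, 3L, 3R and X, of 42126 regions in all. Another 8 regions of State 4 on chromosome 4 were left out, and there were 0 on the heterochromatic names that end in Het. The map was drawn by the modENCODE project from histone marks in cultured fly cells and not in testis, so a region's state is a label brought to these samples and was not measured in them.

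Chromatin immunocleavage (ChIC), in which an antibody directs a nuclease to a tagged protein and the released DNA is sequenced, was applied to testes of males that carried a GFP-tagged histone. There were 3 libraries each of H3-GFP, H3.3-GFP, H3.3S31A-GFP and H3A31S-GFP, 12 in all, each from 18 to 20 testis pairs of males aged about 2 days at 25 °C. The males of every group also expressed the ligand Unpaired (Upd) in the germline under a nanos driver, and carried the histone in a dual-colour FRT cassette together with hsFLP. For H3-GFP, H3.3-GFP and H3.3S31A-GFP the histone and UAS-Upd transgenes lay together on the second chromosome, whereas the H3A31S transgene lay on another chromosome and was combined with a different nos-Gal4 line. The H3A31S-GFP group thus differs from the H3-GFP group in insertion site and driver as well as in residue 31. Testes with germline Upd hold early germ cells and early somatic cyst cells, and the nanos driver limits the tagged histone to the germline. The 12 columns of read counts carry no names that tie them to libraries. Only their sum over all 12 libraries is used below, no histone could be compared with another, no spread between replicates could be given, and no test was possible.

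Introns are transcribed and then removed from the RNA. In flies, long introns near the 5′ end of a gene often hold enhancers, and the chromatin over introns of expressed genes differs in its histone marks from that over the promoter and over the body of the gene. H3 is laid down mostly behind the replication fork, and H3.3 can also be laid down outside S phase at sites where nucleosomes are lost, such as transcribed genes. In the map, State 1 marks promoters and transcription start sites (TSSs), State 2 transcription elongation, State 3 regulatory regions, and State 9 transcriptionally silent intergenic DNA.

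The list does not state the genome build of its coordinates, so regions were placed on genes and sequence only on 2L, where 91.4% of 1239 State 1 regions held an annotated TSS in dm6, the build to which the reads were aligned. Sequences of 4 State 4 regions show the intronic DNA that the state covers. Each is the 200 bases at the middle of its region, from the plus strand of dm6 (RefSeq), and every base is intronic. The first 3 come from the longest State 4 regions of ed, Sema1a and Snoo, and the last from elB, the wholly intronic region with the most reads per kb among those of at least 1000 bp. Capitals mark matches of at least 5 bases to GAGAG or its reverse complement CTCTC, the core letters of sites bound by GAGA factor, a protein that opens promoters and enhancers in flies.

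ed, chr2L:4081163-4081362: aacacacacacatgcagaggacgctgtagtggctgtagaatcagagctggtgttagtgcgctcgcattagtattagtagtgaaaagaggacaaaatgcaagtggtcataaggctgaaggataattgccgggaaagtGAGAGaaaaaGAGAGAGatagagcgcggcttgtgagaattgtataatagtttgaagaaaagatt
Sema1a, chr2L:8610163-8610362: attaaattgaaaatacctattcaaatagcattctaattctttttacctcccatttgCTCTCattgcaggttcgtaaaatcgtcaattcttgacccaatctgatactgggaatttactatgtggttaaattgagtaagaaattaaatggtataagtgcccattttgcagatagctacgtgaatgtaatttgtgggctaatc
Snoo, chr2L:7921563-7921762: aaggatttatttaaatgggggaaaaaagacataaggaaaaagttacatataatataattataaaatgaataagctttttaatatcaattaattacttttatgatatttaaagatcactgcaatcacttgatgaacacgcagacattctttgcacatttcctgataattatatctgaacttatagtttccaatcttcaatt
elB, chr2L:14394063-14394262: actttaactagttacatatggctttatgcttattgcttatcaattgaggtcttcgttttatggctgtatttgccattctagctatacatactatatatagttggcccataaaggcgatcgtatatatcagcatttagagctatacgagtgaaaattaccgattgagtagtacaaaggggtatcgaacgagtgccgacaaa

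The 4 windows range in GC content from 24.5% in Snoo through 33.0% in Sema1a and 36.5% in elB to 42.5% in ed. The ed window holds 3 matches to GAGAG, overlapping ones counted, the Sema1a window 1 and the other windows 0. Over all State 4 bases of 2L the GC content was 40.8%, against 41.8% over all listed bases of the arm and 44.6% in State 1. Within introns alone, State 4 and all listed bases were at 39.6% and 39.3%.

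State 4 made up 15.4% of the regions on the 5 arms and 11.95% of their summed length. The median State 4 region was 2200 bp long, the range was 200 to 106400 bp, and the middle 80% of regions were between 600 and 10200 bp long. The 657 regions over 10 kb were 10.3% of the members and held 45.9% of their length, so a minority of long regions carries much of the state. State 3 had the same median of 2200 bp, State 1 was shorter at 1800 bp, and State 2 and State 9 were longer at 3000 and 3200 bp.

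The members are spread unevenly over the arms. There were 1266 on 2L, 1283 on 2R, 1506 on 3L and 1517 on 3R, between 16.1% and 17.9% of the regions of each arm. On the X there were 783, 9.92% of its regions. The length of the members differed little between arms, with medians of 2000 bp on 2R, 2200 bp on 3R and X and 2400 bp on 2L and 3L. State 5, the state of active genes on the X of males, is another label for transcribed chromatin and lies mainly on that chromosome.

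State 4 regions abutted regulatory or silent chromatin more often than promoters. Of 13531 contacts, in which a region begins where a State 4 region ends or ends where it begins, 46.0% were with State 9 and 35.3% with State 3. Over the contacts of all states, State 9 took 18.9% and State 3 12.3%, so they were 2.44 and 2.88 times as frequent beside State 4 as over all states. Regions of the same state seldom abut in this list. State 4 took 1.29% of its own contacts against 15.0% of all contacts, which leaves larger shares to the other states. State 1 took 1.71% of the contacts of State 4 against 18.6% of all contacts. State 2 took 10.1% against 16.8%. Seen from the other side, 43.0% of the contacts of State 3 were with State 4. State 9 (41.8% to 47.1%) and State 3 (34.3% to 36.9%) took the most contacts on each arm. The X differed in the other states, where State 2 took 1.39% of the contacts against 10.3% to 12.3% on the other arms, State 5 took 9.70% against 0.289% to 0.715%, and State 8 took 5.72% against 0.325% to 0.932%.

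The list covers nearly every base by 2 regions, which can differ in state. It does not say why, so a second state is a second label of the same base. It does not show that 2 chromatin states were present there. Of the 21.3 Mb in State 4 regions, 31.4% had State 4 in both regions, 31.4% had State 9 in the second region and 19.4% State 3. State 2 was the second state over 6.24% of the bases, State 6, the Polycomb state, over 4.15%, and State 1 over 0.246%. On 2L, State 3 was the second state over 17.8% of State 4 bases and covered 10.9% of all listed bases, while State 9 was the second state over 31.2% and covered 48.8% of all listed bases. The share of the arm counts a base if either of its 2 regions has the state, the second-state share only the other region. State 3 even so shared State 4 bases more often than it covered the arm. For State 9 the lower share cannot be read as less frequent, because the measures differ in this way. On the X, State 5 was the second state over 19.2% of State 4 bases, and 20.2% had State 4 in both regions.

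**Figure D1:**
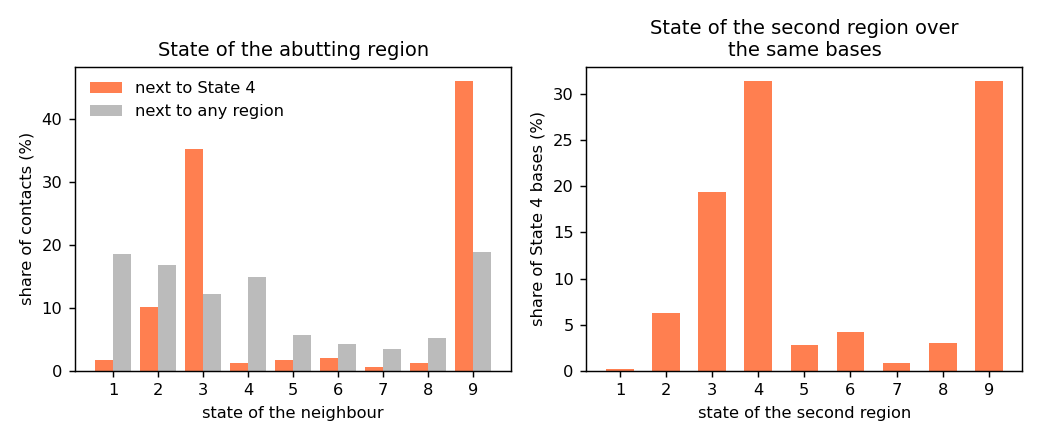
Left, share of contacts (%) between a region and the regions that abut it, by the state of the neighbour, for State 4 regions (13531 contacts, orange) and for regions of all 9 states (grey). Right, share of State 4 bases (%) by the state of the second region that covers them. States 9 and 3 lead on the left at 46.0% and 35.3%, and States 4, 9 and 3 on the right.

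On 2L, introns were the main location of State 4. Of its 4.37 Mb there, 63.7% were intronic, 8.23% coding exon, 2.75% 5′ UTR, 2.57% 3′ UTR, 2.17% other exon and 20.6% intergenic. Of all listed bases of 2L, 40.5% were intronic, so the share in State 4 was 1.57 times as high. State 4 was not the most intronic state. State 3 was at 72.7%, and of the other states State 9 came nearest at 40.1%. State 2, the elongation state, was at 30.6% intron and 45.9% coding exon. State 4 covered 30.1% of all intron bases of the arm, State 3 19.6% and State 9 48.3%. These shares overlap, since a base can lie in 2 regions with different labels.

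Bases with State 4 in both regions were 71.7% intronic, and bases with State 4 in 1 region 60.0%. Where the second state was State 3 the share was 75.3%, and where it was State 9 it was 54.3%, with 27.9% intergenic. Overlap with State 6 went with the lowest intron share of the larger classes, 39.2%, and with 50.5% intergenic. Along the arm the intron share of State 4 ranged from 51.4% to 69.6% over stretches of up to 4 Mb and exceeded that of all listed bases in each of them.

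**Figure D2:**
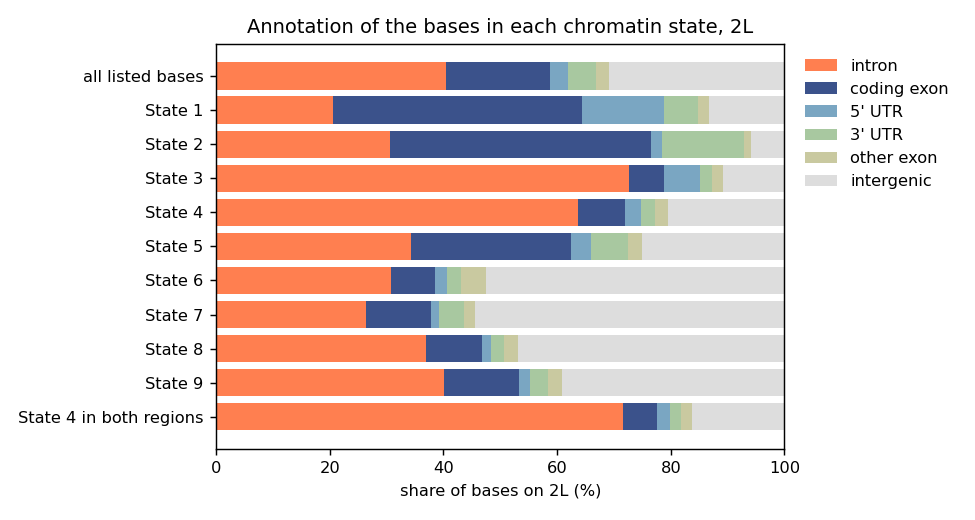
Share of the bases of 2L (%) in each of 6 annotation classes, for all bases covered by the list, for each state and for bases with State 4 in both regions. Each base was given 1 class. The intron segment is longest in State 3 (72.7%) and next longest in State 4 (63.7%), or 71.7% where both regions are State 4.

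Single regions were less uniform than the sum of their bases. Of the 1266 State 4 regions on 2L, 484 (38.2%) lay within 1 intron and 712 (56.2%) were at least 50% intronic. At the other end, 308 (24.3%) held no intron base and 182 (14.4%) were intergenic in every base. A TSS lay inside 379 (29.9%), against 40.4% of State 3, 42.3% of State 9 and 27.5% of State 2 regions. The label of active introns therefore describes most of the State 4 bases on 2L and not every region. Whether the genes are expressed in these testes was not measured, as the libraries hold DNA only.

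State 4 was concentrated in long introns. It covered 8.19% of the bases of introns of at most 200 bp, 12.6% of those up to 1000 bp, 18.7% up to 5000 bp, 30.6% up to 20000 bp and 40.4% of those over 20000 bp. State 2 went the other way, from 43.7% to 9.02% over the same classes. State 3 had its highest share, 25.2%, in introns over 5000 and up to 20000 bp. Of the 111 longest introns 75 (67.6%) held State 4, against 461 of 5674 (8.12%) of the shortest. The median intron with State 4 was 483 bp long and the median of all 8310 introns 71 bp. Introns over 5000 and up to 20000 bp held 37.0% of the intronic State 4 bases, and those over 20000 bp held 47.5%. Long introns also hold many of the intron bases, and over introns of all lengths State 4 covered 29.8% of the bases.

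First introns held about the part of State 4 that their length would give, 31.5% of the intronic State 4 bases against 33.8% of all intron bases. State 4 covered 27.7% of first introns, 33.6% of second, 40.1% of introns next after these and 23.7% of all later introns by length. Among introns over 5000 bp the shares were 31.3%, 36.6%, 46.9% and 33.6% in the same order.

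Along 614 protein-coding genes of at least 5000 bp, State 4 lay in the interior. It covered 18.3% of the bases in the first of 10 equal parts of the gene, reached 33.2% in part 4, was still at 30.4% in part 7 and ended at 12.7% in the last. State 3 fell from 26.1% to 6.30% from the first part to the last, and State 2 climbed from 7.29% to 46.7%. State 1 was at 16.5% in the first part.

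**Figure D3:**
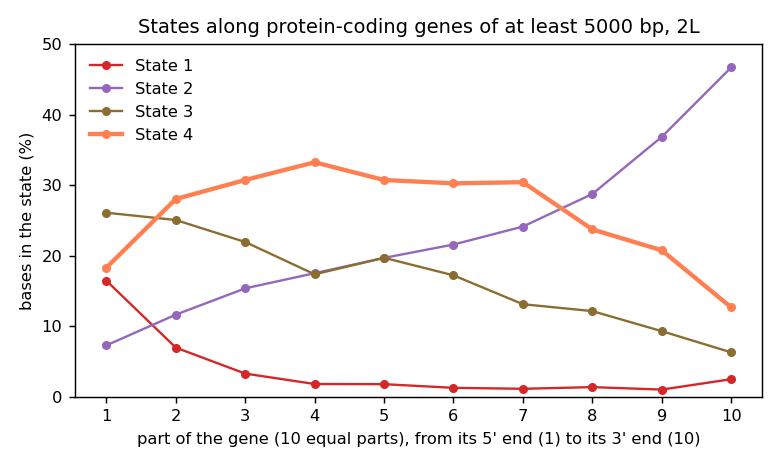
Share of bases (%) in States 1 to 4 in 10 equal parts of 614 protein-coding genes of at least 5000 bp on 2L, from the 5′ end (1) to the 3′ end (10). State 4 (thick line) is highest in the middle of the gene, 33.2% in part 4, State 3 in the first part and State 2 in the last.

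Of the 2657 protein-coding genes on 2L, 616 (23.2%) held State 4, and 323 had at least 50% of their span in it. The share of genes with State 4 grew with gene length, from 14.9% of genes under 2000 bp through 18.7%, 36.5% and 62.6% to 86.8% of the 53 genes of at least 50000 bp. A few long genes held much of the state. The 10, 50 and 100 genes with the most State 4 bases held 16.4%, 46.2% and 59.7% of the State 4 bases of the arm.

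Sema1a, which encodes a transmembrane semaphorin of axon guidance, held the most. State 4 covered 104 kb (80.4%) of its 130 kb, in 15 regions, and 97.01% of those bases were intronic. Lar, a receptor tyrosine phosphatase, held 96.8 kb (66.6%). CG46244, which lies inside the span of Lar, held 80.0 kb of the same bases. In Lar the second state was mainly State 2, which covered 96.8% of the gene. Snoo, a homologue of the Ski and Sno cofactors of TGF-β signalling, held 80.6 kb (86.7%), and 85.1% of these bases had State 4 in both regions. In mtgo State 4 covered 78.9 kb (66.8%) and in osp 74.0 kb (82.1%).

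The immunoglobulin-domain adhesion protein gene ed held 76.6 kb, 90.8% of its span, of which only 19.6% had State 4 in both regions. State 9 covered 79.2% of the same gene. The remaining genes with the most bases were CG42238 (69.0 kb, 79.7%), RapGAP1, a GTPase-activating protein for Rap1 (68.8 kb, 84.8%), and sick (68.0 kb, 42.0%). The genes thus reach high State 4 totals in different ways, with State 4 in both regions in Snoo, beside State 2 in Lar and beside State 9 in ed.

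**Figure D4:**
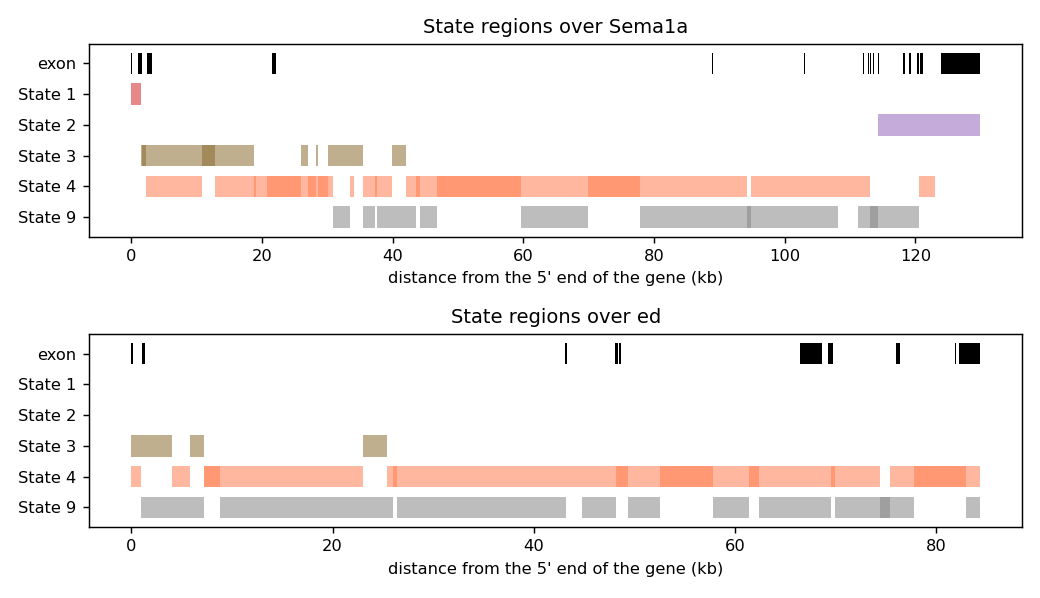
Exons of all transcripts (black) and regions of States 1, 2, 3, 4 and 9 over Sema1a and ed, by distance from the 5′ end of the gene in kb. Darker parts of a state's track lie in 2 regions of that state. State 4 covers 80.4% of Sema1a and 90.8% of ed, and in ed most of it is paired with State 9.

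Among genes of at least 5000 bp, CG33543, CG11147, CG15279 and CG5050 lay wholly in State 4. Their State 4 bases were 29.05% to 60.0% intronic, so here exons were covered as well. CG31808 (99.4%) and CG9967 (97.1%) followed, then eys (94.96%), which encodes a secreted protein of the eye and overlaps CG9967. Agpat2, an acyltransferase of phospholipid synthesis, was at 92.5% with State 3 over 98.1% of the gene, and CenG1A, a GTPase-activating protein for Arf, at 91.2%.

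Gene lists gave different shares, and the lists also differ in gene length. Each is therefore given beside the share of all protein-coding genes of 2L in the length class that holds its median. Genes within a list fall in several classes. A difference from that 1 class thus shows no excess or lack, and a gene-by-gene match for length was not made. In the germline and niche list 3 of 10 genes on 2L held State 4. They were chinmo, a transcription factor that JAK-STAT signalling maintains in stem cells of the niche (11.4 kb, 21.3%, with State 6 over 99.8% of the gene), the germline helicase gene vas (1.11 kb, 8.75%), and tj, a factor of somatic gonad cells (1.396 kb, 40.0%, none of it intronic). Piwi pathway genes piwi and aub, the germline RNA helicase gene me31B, the Cdc25 phosphatase gene twe, tomb, the stem cell factor gene esg and Socs36E, a feedback inhibitor of JAK-STAT signalling, held none. The median length in this list was 3575 bp, and 18.7% of all genes from 2000 to 5000 bp held State 4.

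In the signalling list 8 of 18 genes (44.4%) held State 4, against 36.5% of all genes from 5000 to 20000 bp. The list runs from Rack1 (1.97 kb) to bun (91.1 kb), and the length classes run from 14.9% to 86.8%. An excess over genes of like length is therefore not shown. In the BMP pathway the ligand Dpp binds the receptor Tkv, and Mad carries the signal to the nucleus. Its genes tkv (69.5%), dpp (65.7%) and Mad (48.6%) were among the 8. The others were ed, the protein kinase A catalytic subunit gene Pka-C1 (81.5%), bun (49.0%), the Notch inhibitor gene numb (43.4%) and Wnt4 (18.4%). The Wnt genes wg, Wnt6 and Wnt10 held none and lay in State 6 over 91.5% or more of their length. Pvr, spi, Akap200 and Socs36E also held none, with State 3 over 63.5% to 83.0%. Nor did smo, Su(H) and Rack1 hold any.

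In the nervous system list 12 of 18 genes (66.7%) held State 4. The median length was 44276 bp, and of all genes from 20000 to 50000 bp 62.6% held State 4, which is near the share of the list. After Sema1a came the glutamate transporter gene Eaat1 (71.7%), the guidance receptor gene robo2 (60.7%) and beat-Ib (51.1%). CadN, the neuronal cadherin, held 39.0 kb (29.7%) in 1 region, and Ddr, dpr3 and Fas3 were between 20.7% and 23.3%. The share was 7.64% in dpr2, 7.38% in tutl, 2.15% in nAChRalpha6 and 0.498% in robo3. State 9 covered 100% of CadN2, beat-Ia, beat-Ic, Toll-4 and Eaat2, which held no State 4. It also covered 100% of CadN, dpr3 and robo3, which held some. State 6 covered 100% of dac, which held no State 4. Among chromatin and cell cycle genes 1 of 13, CycE, held State 4, over 2.92% of its span. His3.3A, esc, kis, crol and E2f2 were among the 12 without it, and the median length in this list was 2457 bp, in the class at 18.7%.

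Pooled over the 12 libraries, State 4 regions of 2L had a median of 603 reads per kb, and the middle 80% of regions lay between 511 and 699. State 3 had 643, State 1 636, State 2 588 and State 9 572, and the regions of all other states together 595. State 7, the pericentromeric heterochromatin state, had 602, close to State 4. State 5 had 626 (90 regions), State 8 574 and State 6 573. The medians differ by much less than the spread between regions, and the ranges overlap widely. Reads of H3 and H3.3 and of the mutant histones are summed here, and no input or untagged library was used here, so a value is a density of recovered reads and does not measure the amount of any histone.

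Within introns the median of State 4 was again below that of State 3 and above that of State 9, but it was also below that of State 2. Among regions of 2L that were at least 90% intronic, the median was 685 reads per kb in 22 State 1 regions, 638 in 304 State 3 regions, 633 in 42 State 2 regions, 596 in 465 State 4 regions and 581 in 282 State 9 regions. The order of State 2 and State 4 depended on the measure. As total reads over total length, State 2 (545) was below State 4 (561), while State 3 (594) stayed above it and State 9 (552) below it. Of the State 4 regions sorted by their second state, those with State 3 over at least 90% of their bases were at 630 (93 regions) and those with State 9 at 594 (276 regions). Intergenic State 4 regions (599) and intronic ones (596) were close to each other, and regions that held a TSS (609) were close to those that held none (600). Short and long regions differed more, with 635 reads per kb in regions of 200 to 400 bp and 575 in those over 10 kb. The regions of other states of these lengths were at 615 and 566.

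On the other arms the median of State 4 was 567 reads per kb on 2R, 583 on 3L and 575 on 3R. There the states were closer together, and the order of 2L was not kept. On 3R the medians of States 1, 2, 3, 4 and 9 lay between 573 and 579, and on 2R between 561 and 568. State 3, highest of these on 2L, was at 562 on 2R, below State 4 (567) and State 9 (568). On 3L State 4 (583) lay below State 1 (609), State 3 (603) and State 2 (592) and above State 9 (571). On 2R, 91 of 1283 State 4 regions (7.09%) had under 100 reads per kb, and on 3R 95 (6.26%), against 6 (0.474%) on 2L. Low values were not particular to State 4, since the shares of all regions were 9.24% on 2R, 6.49% on 3R and 1.04% on 2L. The build of the list is not stated, and coordinates of the arms other than 2L were not compared with dm6 genes or sequence here. Reads on these arms may have been counted beside the labelled bases, which was not tested. The state medians off 2L and their order therefore cannot be read as a property of the states.

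On the X the median of State 4 was 303 reads per kb, 0.503 times that of 2L and 0.520 to 0.535 times that of the other autosomal arms. The samples come from males, which carry a single X. Medians of States 1, 3 and 9 of the X were also between 301 and 305, and that of State 2 was 317 (64 regions). The limit on coordinates off 2L holds for the X as well.

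**Figure D5:**
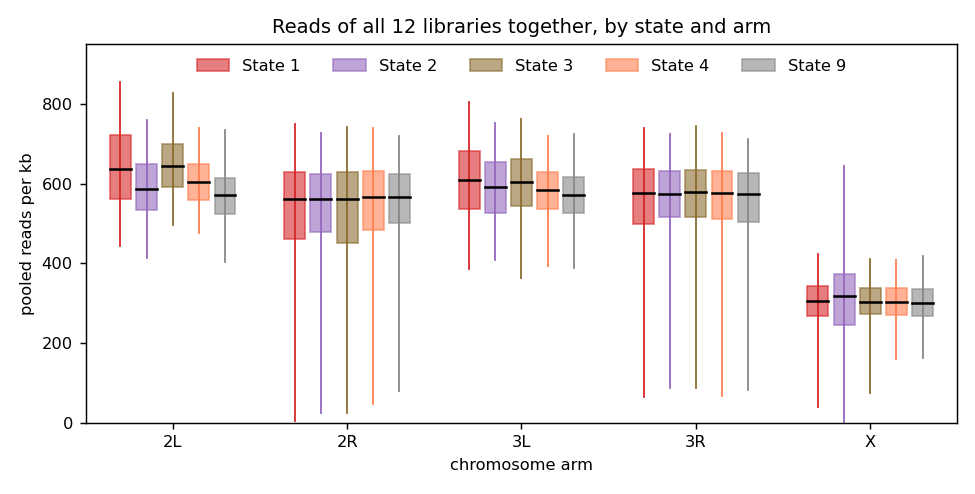
Reads per kb summed over all 12 libraries, by chromosome arm and state. Black bars are medians over regions, boxes span the middle 50% and lines the middle 90% of regions. On 2L State 4 (median 603) lies between State 3 (643) and State 9 (572), and the X has values near 300 in every state shown.

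The spread between State 4 regions of 2L was larger than counting error. The SD was 103 reads per kb (n = 1266 regions), and the median counting SD of a region, from the square root of its reads, was 15.7. Of the regions of at least 1000 bp, 90.5% were within 20% of the median. GC content went with part of this spread. In regions of at least 1000 bp in which at least 90% of 50-base windows occur once in the genome, the median fell from 681 reads per kb below 35% GC (36 regions) to 552 at 44% and above (168 regions). Across these 1027 regions Pearson's r was -0.46 and Spearman's rho -0.45. Regions are not independent replicates, and all share the same 12 libraries. In the same kind of regions Pearson's r was -0.76 in State 2, -0.63 in State 9 and -0.40 in State 3. The part of base composition in the differences between states was not tested.

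Repeated sequence went with the low values. Reads of low mapping quality had been removed by the authors. In 40 State 4 regions of 2L fewer than 90% of the windows were unique, and their median was 377 reads per kb. In the 17 with under 50% unique windows it was 151. The 3 regions with 0 reads, and all 6 with under 100 reads per kb, were among these 17.

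The lowest regions lay in copied DNA. A pair of 1000-bp regions in an intron of stol, a gene for a calcium channel α2δ subunit, had 0 reads each (exact Poisson upper limit of 3.69 reads per kb) and 0% unique windows. The first, chr2L:15659963-15660962, is repeated 34997 bp further along the arm with 1000 of 1000 bases identical, and the copy overlaps the second, chr2L:15694963-15695962. The stretches below, 100 bases from the middle of the first region and the same bases of its copy, show that no base tells them apart. They hold neither of the marked motifs, so no letter is in capitals.

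stol, chr2L:15660413-15660512: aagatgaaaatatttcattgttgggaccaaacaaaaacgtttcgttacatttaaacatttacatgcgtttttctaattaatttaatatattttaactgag
stol, chr2L:15695410-15695509: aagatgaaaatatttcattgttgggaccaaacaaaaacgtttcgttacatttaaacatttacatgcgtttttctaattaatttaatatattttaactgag

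A region over CG13796 had 72 reads, 32.7 per kb (exact Poisson 95% interval 25.6 to 41.2), and 4.55% unique windows. At a distance of 6140 bp, 2198 of its 2200 bases (99.9%) recur. The region over CG31904, chr2L:7736763-7738962, had the same share of unique windows and 0 reads in 2200 bp. Counted further along the arm from the CG13796 region, chr2L:7730563-7732762, that distance places the copy over the CG31904 region. The last of the 5 lowest regions of at least 1000 bp was intergenic, had 56.8 reads per kb over 11800 bp, and consisted to 90.3% of annotated transposable elements, a copia and an mdg3 element.

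The highest region of at least 1000 bp covered part of Gpdh1, the gene for glycerol-3-phosphate dehydrogenase. Its 3200 bp, chr2L:5945763-5948962, had 4027 reads, 1258 per kb (exact Poisson 95% interval 1220 to 1298), and were 76.8% exonic. The reads were not limited to State 4 there. A State 3 region of 800 bp in the same gene was at 1338 reads per kb, a State 2 region at 1225 and a State 4 region of 400 bp, inside the larger one, at 1563, while the State 1 regions at its ends were between 690 and 860. All windows of these State 4 regions were unique and their GC content was 40.0% and 33.0%. Only 4 State 4 regions of the arm exceeded 1000 reads per kb, the pair in Gpdh1 and a pair of intergenic 200-bp regions near Rh5 and Wdr81 (1205 and 1175). This pair was named after its values were seen.

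After Gpdh1, the highest regions of at least 1000 bp were intergenic regions at 917 and 839 reads per kb, both with State 3 over all of their bases, and intronic regions in elB, a zinc finger gene, at 824 (95% interval 774 to 877) and in CG31626 at 820, both with State 4 in both regions. They exceeded 98.8% or more of the State 4 regions of 2L. The 5 longest regions were below the median of the arm. They were 65400 bp in CG42238 (546 reads per kb), 60200 bp in Snoo (541), 52200 bp in Sema1a (517), 49000 bp in ed (517) and 47800 bp over Wdr62 (474). Unique windows made up 100% of the one in Snoo, 94.4% in ed and 84.0% to 88.1% of the others.

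The short motifs searched were about as frequent in State 4 as over all listed regions of 2L, apart from runs of A or T, the AP-1 letters and the DREF letters. A run of at least 7 A or 7 T was in 18.6% of the 28805 windows of 200 bp in State 4 regions. It was in 15.8% of all 225662 windows in the listed regions of the arm, 20.0% in State 3, 11.01% in State 1 and 10.0% in State 2. GAGAG was found in 21.0% of State 4 windows, in 21.0% of all windows and in 20.6% of State 1 windows. The letters TATCGATA, to which the replication-related factor DREF binds, were in 0.312% of State 4 windows, 0.491% of all windows and 2.52% of State 1 windows. TGACTCA, the letters of an AP-1 site, were in 2.00% of State 4, 1.66% of all, 1.74% of State 1 and 3.13% of State 3 windows. TTCNNNGAA, the spaced letters bound by STAT proteins, were in 6.08% of State 4, 6.17% of all and 5.93% of State 1 windows. TATAAA was in 23.5% of State 4, 22.4% of all and 17.9% of State 1 windows. Both strands were searched. A window was counted once for each region that covered it, so windows in 2 regions, also 2 of the same state, count 2 times.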

How the data were processed

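The authors mapped ChIC reads onto dm6 (Bowtie2), discarded poorly mapped and redundant ones, and counted the rest per region of a modENCODE list of 9 states. The deposited table holds whole-number read counts, and its 12 columns carry no names, so none was assigned to a sample. The other values the authors deposited are the start, end and state number of each region. Rows of both tables were matched by order. In 22116 pairs of nested regions the inner one had more reads in 0, and 42 coordinates listed more than once had equal sums. Counts summed over regions and libraries came to 115822034, in which most reads count 2 times because regions overlap. Depth per library is not given here, and the 476 regions on Het names had 0 reads.

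The listed starts count from 0, and printed starts count from 1. Each base of 2L was classed, in the order coding exon, 5′ UTR, 3′ UTR, other exon, intron, intergenic, with Ensembl release 115 (transposable elements were left out). Contacts, gene shares and introns (longest transcript) were computed from these. Reads per kb are the summed count divided by region length. Intervals are exact Poisson 95% intervals and cover counting error only, as reads carry no molecular identifiers. Unique windows are 50-base windows found once in all dm6 sequences, both strands searched. The classing and window steps were tested on simulated data. Python 3.11.15, numpy 2.4.6, pandas 2.3.3, scipy 1.17.1 and matplotlib 3.10.9 were used.

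The members, gene lists and named items were chosen with earlier results of these data known. Named were the 10 genes with the most State 4 bases, the 10 genes of at least 5000 bp with the largest share, the list members on 2L, the 5 regions of at least 1000 bp with the highest and the 5 with the lowest reads per kb, and the 5 longest regions. The edgeR comparisons of H3 with H3A31S and of H3.3 with H3.3S31A that the design implies were not run, as no column could be tied to a histone.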

Additional observations from a re-analysis of the deposited data

How the results depend on the processing

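The intron share of State 4 on 2L (63.7%) became 64.2% with protein-coding genes only, 69.1% with introns placed before exons, 71.7% for bases with State 4 in both regions, 64.1% for regions of at least 1000 bp and 63.2% without the last 2 Mb of the listed arm. It was 60.7% with transposable elements as exons, an alternative chosen after seeing the data, and 63.7% with the RefSeq annotation. State 4 stayed behind State 3 and ahead of the other states under the 4 annotation settings compared for all states. The median of 603 reads per kb stayed between 600 and 605 under 7 alternatives (2 of them, on unique windows, chosen after seeing the data), and was 576 as total reads over total length, which weights long regions. The median length was 2000 bp on 2R and 2200 to 2400 bp on the other arms. Around regions of at least 1000 bp, State 3 took 38.6% and State 9 42.4% of the contacts. No paired analysis was possible because no count column is tied to a replicate number, and for the same reason no replicate could be left out. Depth limits the shortest regions most, as those of 200 to 400 bp on 2L held a median of 243 reads and all State 4 regions there 1435 (pooled), and repeated sequence limits 40 regions.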
